A study of Homo sapiens with 6 samples.

Results

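Long intergenic noncoding RNAs (lincRNAs) are transcripts of genes that lie between protein-coding genes and encode no known protein. The lincRNAs described here are the 218 genes with the biotype lincRNA on chromosomes 1 to 22 whose level, averaged over 6 RNA libraries of A549 cells, reached at least 2 CPM (the count per 1e6 counts of the library's total). They were chosen by this level from 7446 autosomal lincRNA genes, of which 3067 had a count in any library, and from 58735 genes in all. A549 is a cell line derived from a human lung adenocarcinoma. All 3 groups were made from it by stable lentiviral infection. The T133A group received HOXB9 with a threonine replaced by alanine, the KO group is labelled as a HOXB9 knockout, and the WT group received unchanged HOXB9. HOXB9 encodes a homeodomain protein that binds DNA and regulates transcription. Each group had 2 libraries, all from cells grown in RPMI 1640 medium with 10% serum. The labels do not say whether KO is a single clone, whether endogenous HOXB9 remained intact in the other groups, or whether replicates came from separate cultures, and no group had an empty vector. P-values therefore rest on the spread among these libraries, and that spread may be purely technical.

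Most lincRNAs are transcribed by RNA polymerase II, and many are spliced and polyadenylated, but they are kept in the nucleus more often than messenger RNAs. Their known roles differ widely. NEAT1 is the scaffold of paraspeckles, MALAT1 collects in nuclear speckles and was first described in metastasizing lung adenocarcinoma, and NORAD binds Pumilio proteins in the cytoplasm. Others act on a neighbouring gene, carry microRNAs or small nucleolar RNAs, or have no known function.

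Total counts per library were between 16299059 and 18745432. HOXB9 itself had 4777 and 3577 counts in T133A, 239 and 286 in KO, and 3807 and 3889 in WT, so its transcript was low in the libraries labelled KO (edgeR log2 fold change of KO against WT -3.88, SE 0.135, adjusted p = 3.27e-16). Of 13 lung epithelial and A549 marker genes, 10 averaged at least 1 CPM, with sums of 13630 and 12130 CPM in T133A, 11240 and 12140 CPM in KO and 14120 and 14940 CPM in WT, while the lung lineage genes NKX2-1, SFTPC and SFTPB were at or near 0 in all libraries. Single markers of this list differed in direction in KO. EPCAM was at 12.3 and 12.5 CPM in T133A, 1.96 and 1.71 CPM in KO, and 14.9 and 17.3 CPM in WT, and CDH1 and AKR1C1 were also lowest in KO, while KRT7 was at 1329 and 1226 CPM in T133A, 1946 and 1624 CPM in KO, and 891 and 906 CPM in WT. Haematopoietic and endothelial markers summed to at most 0.719 and 2.35 CPM in any library. The fibroblast list summed to 30.7 and 33.4 CPM in T133A, 14.5 and 14.03 CPM in KO, and 30.1 and 30.2 CPM in WT. Its member LUM held 19.5 and 25.4 CPM in T133A, 0.245 and 0.213 CPM in KO, and 22.2 and 21.3 CPM in WT, whereas THY1 was at 2.40 and 0.764 CPM in T133A, 4.79 and 3.52 CPM in KO, and 0.779 and 0.626 CPM in WT, and COL1A1 was also highest in KO. Mitochondrially encoded genes held 8.91% and 8.51% of counts in T133A, 5.60% and 4.45% in KO, and 7.87% and 7.84% in WT.

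The 218 lincRNAs had a median level of 4.37 CPM and ranged up to 361.5 CPM. Only 47 reached a mean of 10 CPM, and 97 reached 5 CPM. Just inside the threshold were AC018645.2 at 2.05 CPM and BX537318.1 and AC009414.2 at 2.01 CPM each. Just outside were AC144652.1 at 1.98 CPM, BX470102.2 at 1.93 CPM and LINC01011 at 1.91 CPM. All 218 passed edgeR's filter on low counts, since the threshold on the mean was stricter. A gene could enter through its level in a single group, and 58 members were under 2 CPM in some group: 34 in KO alone, 8 in WT alone, 6 in T133A alone and 10 in 2 groups. These 58 had to differ between groups. Calls with no minimum fold change are therefore also counted below for the 160 members with at least 2 CPM in each group.

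The members were shorter than coding genes. Their median length of joined exons was 2859.5 bases, against 5292.5 bases for 11932 coding genes at the same level, and their median GC content was 47.5%, against 49.01%. A single exon was annotated for 55 of them. The nearest coding gene lay within 50 kb of 175 members, 47 members overlapped the body of a coding gene, and 60 started within 2 kb of a coding gene's start on the opposite strand. Exons of 32 members overlapped coding exons. The sources used here do not state the strand setting of the counting, and reads at such overlaps cannot be assigned to either gene with certainty.

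NORAD, NEAT1 and MALAT1 held a large share of all lincRNA counts, and this share was lowest in KO. The 3 genes took 33.0% and 36.6% of the members' counts in T133A, 27.2% and 22.8% in KO, and 41.6% and 41.9% in WT. All members together summed to 2093.7 and 2412.9 CPM in T133A, 1995.3 and 1771.7 CPM in KO, and 2607.6 and 2651.9 CPM in WT. The ratio of the group means was 0.857 for T133A to WT, 0.716 for KO to WT and 1.20 for T133A to KO. Without these 3 genes the other members summed to 1404 and 1529 CPM in T133A, 1453 and 1368 CPM in KO, and 1524 and 1542 CPM in WT, with ratios of 0.957, 0.920 and 1.04 in the same order. The full sums of both T133A and KO lay below both WT sums, and without the 3 genes T133A overlapped WT. With 2 libraries a group, the smallest p a two-sided exact permutation test allows is 0.333, which each comparison of the full sums gave.

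**Figure D1:**
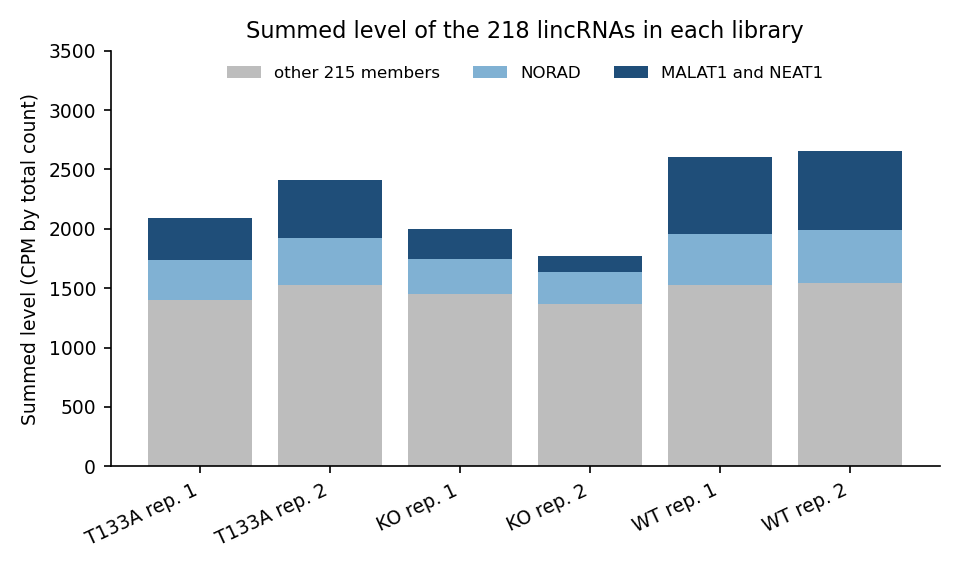
Summed level of the 218 lincRNAs in each library, in CPM by total count, split into MALAT1 and NEAT1 (dark blue), NORAD (light blue) and the remaining 215 members (grey). The bars of KO reach 1995.3 and 1771.7 CPM, below both WT bars at 2607.6 and 2651.9 CPM, and the blue parts are smallest in KO.

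NORAD (ENSG00000260032, chromosome 20, 36045622 to 36050960, reverse strand, a single exon; positions are on GRCh38 throughout) had the highest level of the members both in CPM and per length. It was counted 6083 and 6707 times in T133A, 4837 and 5002 times in KO, and 7266 and 7817 times in WT. These are 349 and 394 CPM in T133A, 293 and 269 CPM in KO, and 424 and 435 CPM in WT after TMM scaling, which adjusts library sizes for composition. No groups overlapped. By edgeR's quasi-likelihood test NORAD fell in KO against WT (log2 fold change -0.61, SE 0.102, adjusted p = 3.9e-05), and it was higher in T133A than in KO (0.40, adjusted p = 0.00307). For T133A against WT the value was -0.21 (adjusted p = 0.219), which passed without T133A replicate 2 (-0.29, adjusted p = 0.0389). With offsets for GC content and length the KO difference was -0.32 (adjusted p = 0.000943). That correction moved the median of all genes in KO against WT to 0.17 and in T133A against KO to -0.14.

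NEAT1 (ENSG00000245532, chromosome 11, 65422774 to 65445540) was counted 3897 and 4680 times in T133A, 2522 and 1688 times in KO, and 6008 and 6982 times in WT. T133A lay between KO and WT with no overlap, and the KO libraries differed from each other more than those of WT did. NEAT1 fell 3.04-fold in KO against WT (edgeR log2 fold change -1.60, SE 0.240, adjusted p = 0.00139). MALAT1, its neighbour on the chromosome (ENSG00000251562, 65497688 to 65506516), was counted 2681 and 3667 times in T133A, 1485 and 869 times in KO, and 4819 and 4711 times in WT. It fell in KO against WT by 1.99 on the log2 scale (SE 0.396, edgeR adjusted p = 0.0219). Without T133A replicate 1 or replicate 2 both calls were lost, at log2 fold changes of -1.62 and -1.60 for NEAT1 and -2.01 and -1.99 for MALAT1. The T133A libraries are not compared here and enter through the shared estimate of spread, the scaling and the set of genes tested. With only KO and WT in the fit both calls were lost as well (edgeR adjusted p = 0.0508 for NEAT1 and 0.0626 for MALAT1), and that of MALAT1 also with no filter on low counts (0.0599) and with replicate number as a block (0.0554). For T133A against WT the log2 fold changes were -0.57 for NEAT1 (edgeR adjusted p = 0.209) and -0.56 for MALAT1 (edgeR adjusted p = 0.49). Without KO replicate 1 or 2 these passed at the same fold changes (edgeR adjusted p = 0.0014 and 0.00134 for NEAT1, 0.00763 and 0.00796 for MALAT1), and NEAT1 also passed without WT replicate 1 (-0.64) or WT replicate 2 (-0.50). Both passed with only T133A and WT in the fit (edgeR adjusted p = 0.00318 for NEAT1 and 0.0144 for MALAT1) and with limma-voom, and NEAT1 with no filter on low counts. For T133A against KO NEAT1 stood at 1.03 (edgeR adjusted p = 0.0124), a call that was lost without T133A replicate 1 (1.20) and T133A replicate 2 (0.88). MALAT1 stood at 1.44 (edgeR adjusted p = 0.0583) and passed without KO replicate 1 (1.96), KO replicate 2 (1.05) or either WT library (1.44 each), and also under 5 other settings, DESeq2 among them (DESeq2 adjusted p = 0.00248). The values of both genes kept their sign in all of these fits, while the calls did not. Whether libraries were made from polyadenylated RNA is not given in the sources used here. MALAT1 ends without a poly(A) tail, so its count depends on that choice.

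CPM grows with transcript length, so levels of different genes were also ranked per length, by the deposited FPKM (fragments per kilobase, scaled to the library). By this measure NORAD led with a mean of 67.2 FPKM over the 6 libraries, followed by the small nucleolar RNA hosts SNHG8 at 22.7 FPKM and SNHG19 at 20.6 FPKM, and MALAT1 at 19.7 FPKM. EBLN3P and NEAT1 were at 10.8 FPKM each. The median member stood at 1.81 FPKM.

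The list named nuclear and architectural had 5 members here: NORAD, NEAT1, MALAT1, PURPL and MEG3. The name is loose, since NORAD binds Pumilio proteins in the cytoplasm. All 5 fell in KO against WT, where 23% of all 16340 genes tested were called lower, with a median log2 fold change of -0.74, against 0.00102 over all genes. In T133A against KO 3 were higher, against 20.3% of all genes. In T133A against WT, where 9.55% of all genes were called, none passed with edgeR or DESeq2, 2 had an unadjusted p under 0.05, and limma-voom called 2 lower. PURPL, a p53-induced RNA that in turn holds p53 levels down, had 15.8 and 22.9 CPM in T133A, 17.8 and 13.0 CPM in KO, and 24.4 and 27.0 CPM in WT. KO and T133A libraries overlapped and all lay below WT (KO against WT -0.74, edgeR adjusted p = 0.00126). MEG3, the maternally expressed RNA of the imprinted DLK1-DIO3 region, had 31.9 and 31.2 CPM in T133A, 26.7 and 15.7 CPM in KO, and 28.5 and 30.7 CPM in WT (KO against WT -0.49, edgeR adjusted p = 0.0232; T133A against KO 0.58, edgeR adjusted p = 0.00944). The MEG3 values turned on the KO libraries: without KO replicate 2 they were -0.17 and 0.25 and both calls were lost, and without KO replicate 1 they were -0.89 and 0.97. The KO call was also lost without T133A replicate 2 (-0.48) and WT replicate 2 (-0.44), and the call of T133A against KO without T133A replicate 2 (0.59). With the GC and length correction the KO value was -0.17 (edgeR adjusted p = 0.385), no longer a call. The number of the 5 called lower in KO was 3 without T133A replicate 1 and 2 without T133A replicate 2, and the number called higher in T133A against KO was 1 without T133A replicate 2.

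A list of coding genes was named for proteins of paraspeckles and speckles, the structures that NEAT1 and MALAT1 belong to. The name is loose, since the list also holds ELAC2 and METTL16. Its genes were called in 1 direction or not at all in KO against WT. Of 22 such genes 13 rose, none fell and 9 did not pass, against 23.6% of all genes called higher and 23% called lower (16 higher and none lower at an unadjusted p under 0.05; median 0.33), 14 were lower and none higher in T133A against KO (19.6% and 20.3% of all genes), and HNRNPH3 alone passed in T133A against WT (-0.47, edgeR adjusted p = 0.0102), a call that was lost without either WT library. Without KO replicate 2 a single gene was lower in KO. The number higher was 8 without WT replicate 1, 9 without WT replicate 2 and 21 with the GC and length correction. RBM14, a paraspeckle protein, averaged 62.4 ± 5.46 CPM in T133A, 152 ± 8.68 CPM in KO and 64.9 ± 1.71 CPM in WT (SD, n = 2 each; KO against WT 1.23, edgeR adjusted p = 3.38e-09). Of 27 genes of nuclear RNA decay and nonsense-mediated decay, which degrade many noncoding transcripts, 12 rose and 4 fell in KO against WT, beside the same shares of all genes. The decay helicase gene UPF1 rose by 0.65 and RBM7, an adaptor of the nuclear exosome, fell by 1.004 on the log2 scale. Leaving out WT replicate 1 gave 8 higher in place of 12, and the GC and length correction gave 20. In T133A against WT 3 fell (UPF2, ZFC3H1 and DIS3) and none rose, against 3.97% and 5.58% of all genes (3 higher and 6 lower at an unadjusted p under 0.05; none higher with limma-voom or DESeq2). Of these 3 none passed without T133A replicate 1 or WT replicate 1, and without T133A replicate 2 the list had 3 higher and 6 lower. The counts of 21 and 20 higher in KO with the GC and length correction stand beside 55.1% of all genes called in that setting. Of those calls over all genes 66.3% were higher. Whether genes of either list have a part in the lincRNA levels was not tested.

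In T133A against WT edgeR called 19 of the 218 lincRNAs (8.72%), against 9.55% of all genes tested. Of these, 13 were higher (5.96%; background 5.58%) and 6 lower (2.75%; background 3.97%), and 42 had an unadjusted p under 0.05. At a minimum log2 fold change of 1 the share was 4.59%, with 10 members called, against 2.64% of all genes. This share includes the 58 members that had to differ between groups and is not given for the 160 others alone. With no minimum, 5.62% of the 160 and 17.2% of the 58 were called. The median log2 fold change was -0.06 over the members and 0.00352 over all genes. The libraries of the groups did not overlap for 117 members (53.7%), against 53.6% of all genes. Among the 160 members with at least 2 CPM in each group, 8 were higher and 1 lower. With a WT library left out, 6 (replicate 1) and 5 (replicate 2) were higher. The number lower was 3 without T133A replicate 1 or WT replicate 1, 12 without T133A replicate 2 and 10 without KO replicate 2. With scaling by library size only, 8 were higher and 7 lower, and with limma-voom 13 were higher and 8 lower.

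**Figure D2:**
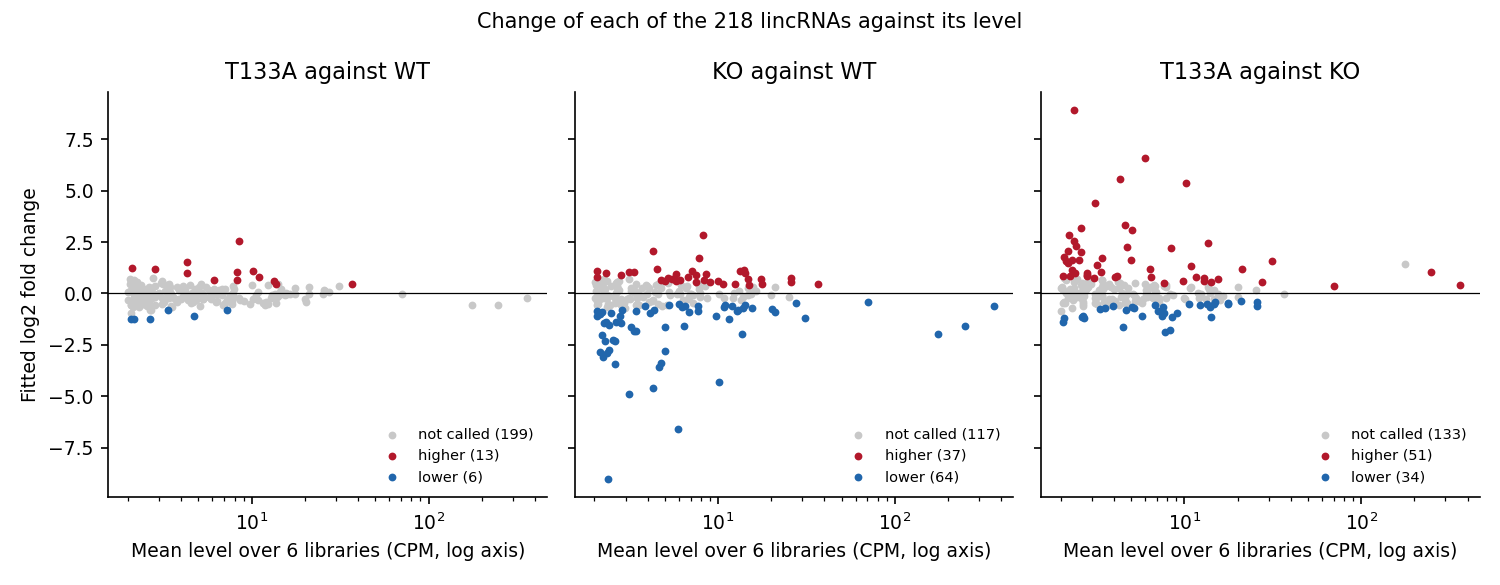
Fitted log2 fold change of each of the 218 lincRNAs (vertical axis) against its mean level over the 6 libraries in CPM (log axis), for T133A against WT, KO against WT and T133A against KO. Red points are called higher (13, 37 and 51), blue points lower (6, 64 and 34), and the points below -2.5 in KO against WT all lie at mean levels of at most 10.2 CPM.

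The largest rise in T133A against WT was AL391056.1 (ENSG00000227619, chromosome 9, 129575409 to 129584556). It was counted 325 and 318 times in T133A, 47 and 95 times in KO, and 62 and 48 times in WT. T133A stood apart from both other groups, which overlapped each other. The edgeR log2 fold change was 2.57 against WT (SE 0.227, adjusted p = 2.83e-08) and 2.22 against KO (SE 0.219, adjusted p = 2.9e-08). LINC00941 had 4.25 and 4.87 CPM in T133A, 7.70 and 5.80 CPM in KO, and 1.93 and 1.28 CPM in WT, and so was higher than WT in both other groups (1.51 in T133A, edgeR adjusted p = 0.000908; 2.07 in KO, edgeR adjusted p = 1.83e-06). LNCAROD, which in human cell lines is known to activate the nearby gene DKK1, had 16.8 and 24.3 CPM in T133A, 0.364 and 0.591 CPM in KO, and 9.98 and 9.47 CPM in WT. It rose by 1.08 in T133A against WT (edgeR adjusted p = 0.00036) and differed by 5.38 between T133A and KO (edgeR adjusted p = 5.95e-13). DKK1, a secreted inhibitor of WNT signalling named here after its values were seen, had 893 and 946 CPM in T133A, 108 and 92.1 CPM in KO, and 766 and 741 CPM in WT (0.29 in T133A against WT, edgeR adjusted p = 0.0904; -2.91 in KO against WT, edgeR adjusted p = 2.71e-15). LINC00973 had 4.42 and 5.58 CPM in T133A, 17.2 and 17.5 CPM in KO, and 2.74 and 2.17 CPM in WT, with no overlap between groups (1.02 in T133A against WT, edgeR adjusted p = 0.00476; 2.82 in KO against WT, edgeR adjusted p = 1.96e-10).

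The remaining large rises in T133A against WT were AC079949.2 (1.23), AC254633.1 (1.18), AL590004.3 (0.99), GASAL1 (0.79), MIR193BHG (0.66) and ITGB1-DT (0.65), with edgeR adjusted p between 0.00331 for GASAL1 and 0.0498 for MIR193BHG. The falls were LY6E-DT (-1.26), AP000439.2 (-1.24), LINC01355 (-1.24), LINC00284 (-1.11), IQCH-AS1 (-0.82) and LINC02532 (-0.79), all 6 members called lower, with edgeR adjusted p between 0.00135 for LINC00284 and 0.0434 for LINC02532. LINC00284 had 3.73 and 4.64 CPM in T133A, 0.909 and 0.806 CPM in KO, and 9.16 and 8.91 CPM in WT, so T133A lay between the other groups. The calls of AL391056.1, LINC00941, LNCAROD and LINC00284 were kept with any 1 library left out. The call was lost without WT replicate 1 for AC079949.2 (1.09), GASAL1 (0.69) and IQCH-AS1 (-0.83), without WT replicate 2 for LINC00973 (0.85) and AL590004.3 (0.89), and without T133A replicate 1 for IQCH-AS1 (-0.69). AC254633.1 lost it without T133A replicate 1 (0.87) and WT replicate 2 (0.89), AP000439.2 without T133A replicate 2 (-1.03) and WT replicate 2 (-1.07), and LINC01355 without T133A replicate 1 (-0.80) and WT replicate 1 (-1.09), its value being -1.84 without T133A replicate 2. ITGB1-DT (0.54, 0.62 and 0.66) and LY6E-DT (-1.14, -1.20 and -1.33) lost it without T133A replicate 1, WT replicate 1 or WT replicate 2. MIR193BHG (0.59 to 0.72) and LINC02532 (-0.87 to -0.71) lost it with any 1 T133A or WT library left out. With DESeq2 the fold changes were close to these and the call was lost for AC079949.2 (DESeq2 adjusted p = 0.107), AC254633.1 (0.0994), AL590004.3 (0.0521), MIR193BHG (0.214), ITGB1-DT (0.13), LY6E-DT (0.109), AP000439.2 (0.109), LINC01355 (0.0938) and LINC02532 (0.252). MIR193BHG lost it under 7 further settings, ITGB1-DT with scaling by library size only, and LINC02532 with no filter on low counts and with the replicate block. Exons of ITGB1-DT overlap those of ITGB1, exons of LY6E-DT those of LY6E, and exons of IQCH-AS1 those of IQCH and C15orf61, so their counts may be shared.

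**Figure D3:**
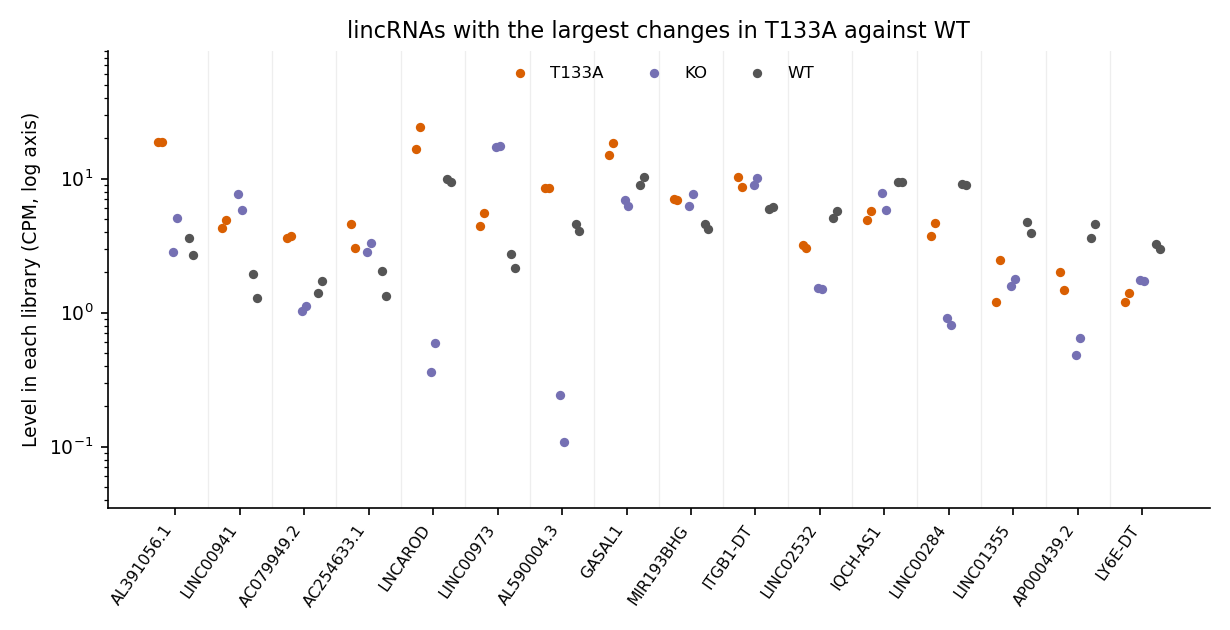
Level in each library (CPM after TMM scaling, log axis) of the 16 lincRNAs with the largest changes in T133A against WT, ordered by that change from the largest rise on the left. Each point is a library. T133A points lie above WT points for the 10 genes on the left and below them for the 6 on the right, while KO points lie on either side.

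In KO against WT edgeR called 101 of 218 lincRNAs (46.3%), against 46.6% of all genes tested. Of these, 37 were higher (17.0%; background 23.6%) and 64 lower (29.4%; background 23%). The members' median log2 fold change was -0.16, and that of all genes 0.00102. KO and WT libraries did not overlap for 162 members (74.3%), against 75.4% of all genes. At a minimum of 1 on the log2 scale 22% of members were called (48 of 218), against 15.2% of all genes. This share includes the 58 members that had to differ between groups and is not given for the 160 others alone. With no minimum, 40.6% of the 160 and 62.1% of the 58 were called. Of the 160 members with at least 2 CPM in each group, 32 were higher and 33 lower, and of the other 58 members 5 were higher and 31 lower. For the 58 this follows in large part from the rule for members, since 34 of them were under 2 CPM in KO alone. By mean level, 13 were higher and 19 lower among the 47 members at 10 CPM or more. Among the other 171 members 24 were higher and 45 lower. With the GC and length correction 49 were higher and 56 lower, and the higher share of the members' calls was then 46.7%, against 36.6% without it. Over all genes tested the higher share of the calls was 66.3% with the correction and 50.7% without it. The log2 fold changes of the members went with GC content (Spearman's rho 0.259 over 218 members, 0.269 over all genes tested; members share the same libraries). Replicates of a group also differed with GC content (rho over members 0.232 for T133A replicate 1 minus 2, -0.189 for KO and -0.160 for WT). The part of GC content in the members' differences was not tested beyond that correction. In bulk RNA, fewer cells that hold a transcript and less of it per cell cannot be told apart. The number higher was 24 without WT replicate 2.

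The deepest falls were in lincRNAs close to absent from KO. LINC01146 (ENSG00000258867, chromosome 14, 88024550 to 88097619) had 60 and 58 counts in T133A, no count in either KO library, and 59 and 72 counts in WT. Against a limit of 3 counts per library it was at least 21.7-fold lower in KO than in WT and at least 20-fold higher in T133A than in KO. LINC01133 (ENSG00000224259, chromosome 1, 159961218 to 159984750), a lincRNA studied in several carcinomas, had 162 and 144 counts in T133A, 3 and 0 in KO, and 131 and 184 in WT. Its summed counts, scaled by library size, were 105-fold lower in KO than in WT, with a 95% counting interval from 35.6 to 512. T133A and WT overlapped for both genes, and neither passed between them (-0.12 with edgeR adjusted p = 0.846 for LINC01146, and -0.01 with edgeR adjusted p = 0.984 for LINC01133).

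Below them, LINC01559 had 3.96 and 3.64 CPM in T133A, 0.242 and 0.107 CPM in KO, and 5.55 and 5.18 CPM in WT (KO against WT -4.91, edgeR adjusted p = 1.58e-09). AL590004.3 had 8.55 and 8.51 CPM in T133A, 0.242 and 0.107 CPM in KO, and 4.55 and 4.07 CPM in WT (-4.60), and LNCAROD differed by -4.31. In all of these T133A and WT lay far above KO. The other largest falls were AC012531.1 (-3.58), AC019117.1 (-3.41), LINC00284 (-3.39), BISPR (-3.07) and LINC01091 (-2.92), with edgeR adjusted p of at most 5.24e-06 for BISPR. All 10 calls were kept with any 1 library left out. The fitted values moved with the KO library left out. Without KO replicate 1 they were -10.30 for LINC01133, which then had no KO count, -5.53 for LINC01559, -5.21 for AL590004.3 and -2.36 for BISPR. Without KO replicate 2 they were -5.58 for LINC01133, -4.29 for AC012531.1, -4.02 for AC019117.1 and -4.74 for BISPR. CASC15, at a neuroblastoma susceptibility locus, had 21.9 and 21.6 CPM in T133A, 3.76 and 4.25 CPM in KO, and 16.5 and 14.6 CPM in WT (KO against WT -1.95, edgeR adjusted p = 5.24e-09). Its rise in T133A against WT (0.48, edgeR adjusted p = 0.0427) was lost without T133A replicate 1 (0.49), WT replicate 1 (0.57) or WT replicate 2 (0.38) and under 5 other settings, DESeq2 among them (DESeq2 adjusted p = 0.161).

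LINC00973, given above, and LINC00941 led the rises in KO. C10orf91 had 4.88 and 3.29 CPM in T133A, 12.1 and 17.6 CPM in KO, and 5.02 and 3.95 CPM in WT (KO against WT 1.73, edgeR adjusted p = 1.48e-06). CYTOR, an RNA named as a regulator of the cytoskeleton, had 12.3 and 13.1 CPM in T133A, 18.8 and 21.6 CPM in KO, and 8.11 and 10.4 CPM in WT (1.13, edgeR adjusted p = 6.95e-06). MIR4435-2HG, a near-identical copy of CYTOR on the same chromosome, had 9.99 and 9.57 CPM in T133A, 22.2 and 21.4 CPM in KO, and 10.7 CPM in both WT libraries (1.02, edgeR adjusted p = 8.08e-06). Reads of this pair may be split between them or dropped, so their separate values are uncertain. The remaining rises were AL355338.1 (1.17), AC245041.2 (1.09), Z83851.1 (1.08), SNHG19 (1.08), AC122710.2 (1.06) and AC004816.1 (1.03). Of the 10, Z83851.1 lost the call without KO replicate 2 (0.87) and WT replicate 2 (1.01) and with DESeq2 (DESeq2 adjusted p = 0.0751), AC122710.2 without KO replicate 2 (0.88) and WT replicate 1 (0.69), and AC004816.1 without KO replicate 2 (0.75) and WT replicate 1 (0.65). Without WT replicate 2 the last pair stood at 1.61 and 1.57.

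**Figure D4:**
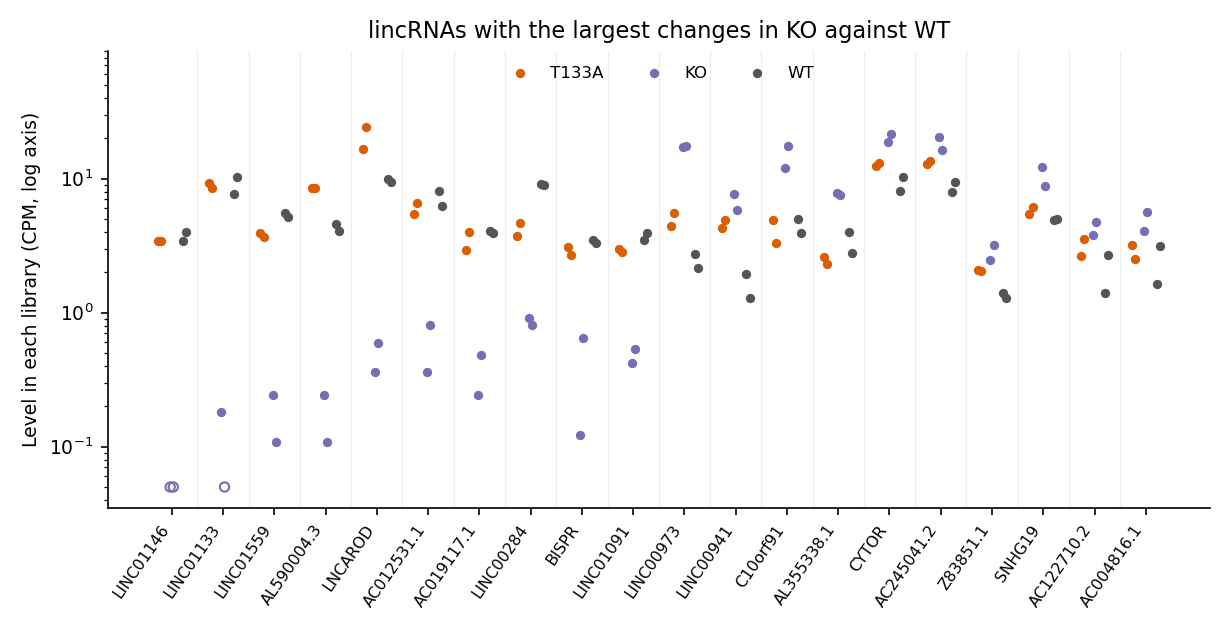
Level in each library (CPM after TMM scaling, log axis) of the 10 lincRNAs with the largest falls (left) and the 10 with the largest rises (right) in KO against WT. Each point is a library, and open circles near the axis mark a count of 0 (LINC01146 in both KO libraries, LINC01133 in KO replicate 2). The KO points of the falls lie below 1 CPM and apart from all T133A and WT points.

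Members next in CPM, some of which ranked lower per length, differed in direction from each other. EBLN3P, a pseudogene of bornavirus origin, had 70.4 and 81.3 CPM in T133A, 63.8 and 52.7 CPM in KO, and 77.7 and 76.6 CPM in WT (KO against WT -0.41, edgeR adjusted p = 0.00685; T133A against KO 0.38, edgeR adjusted p = 0.0121). Its KO call was lost without KO replicate 2 (-0.29) and WT replicate 1 (-0.39), and that of T133A against KO without KO replicate 2 (0.26) and T133A replicate 2 (0.27). With the GC and length correction both calls were lost, at -0.12 (edgeR adjusted p = 0.234) and 0.17 (edgeR adjusted p = 0.0864). LINC00294 had 44.5 CPM in both T133A libraries, 14.8 and 14.996 CPM in KO, and 34.9 and 34.3 CPM in WT (KO against WT -1.21, SE 0.129, edgeR adjusted p = 7.87e-08). It lies within TCP11L1 on the same strand, and that coding gene stood at -1.20 in KO against WT, so the counts of the pair may not be separate. LINC01234 had 23.1 and 21.8 CPM in T133A, 33.0 and 35.7 CPM in KO, and 19.9 and 21.4 CPM in WT (0.73, edgeR adjusted p = 8.86e-05). AC092171.2 rose in KO against WT by 0.55 (edgeR adjusted p = 0.00185, lost without WT replicate 1 at 0.46) and stood at -0.41 in T133A against KO (edgeR adjusted p = 0.0185, lost without KO replicate 2 at -0.40 and T133A replicate 2 at -0.34). LINC01184 did not pass in any comparison (-0.01, -0.16 and 0.16 in T133A against WT, KO against WT and T133A against KO).

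In T133A against KO 85 members were called (39.0%; background 39.9%), 51 higher (23.4%; background 20.3%) and 34 lower (15.6%; background 19.6%), with a median of 0.05 over the members and -0.01 over all genes. T133A and KO libraries did not overlap for 142 members (65.1%), against 67% of all genes, and 44 (20.2%) were called at a minimum log2 fold change of 1, against 12.8%. The latter share includes the 58 members that had to differ between groups and is not given for the 160 others alone. With no minimum, 31.9% of the 160 and 58.6% of the 58 were called. The lincRNAs close to absent from KO led the higher side. Of the 58 members under 2 CPM in some group 29 were higher and 5 lower, and of the 160 others 22 were higher and 29 lower. For the 58 this again follows in large part from the rule for members, since 34 of them were under 2 CPM in KO alone. Beside the genes named above, AC124067.4 differed by 3.10 (edgeR adjusted p = 2.91e-09). It had 7.92 and 7.81 CPM in T133A, 0.909 and 0.914 CPM in KO, and 6.71 and 6.01 CPM in WT. The largest falls were C10orf91 (-1.86), LINC00973 (-1.80), AL355338.1 (-1.65), GS1-124K5.4 (-1.38), LINC01106 (-1.19), AC015849.5 (-1.17), LINC00842 (-1.16), MIR4435-2HG (-1.15), AP002360.1 (-1.13) and LINC00472 (-1.12). AC015849.5 lost the call without KO replicate 2 (-1.08) and T133A replicate 1 (-0.82) and with DESeq2 (DESeq2 adjusted p = 0.0672), and AP002360.1 without KO replicate 2 (-0.92). The number lower was 22 without KO replicate 2. The comparisons of T133A and of KO with WT share the same 2 WT libraries, and both comparisons with KO share its 2 libraries, so none is independent of the others.

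Hosts of small nucleolar RNAs, whose introns carry guides of ribosomal RNA modification and whose spliced RNAs are often degraded by nonsense-mediated decay, included members higher in KO. The list of such hosts had 37 symbols, with 30 genes in the data, of which only 5 met the rule for members. The other hosts are not described here. Of these 5 members, 3 rose and none fell in KO against WT, against 23.6% and 23% of all genes, with a median of 0.48. At an unadjusted p under 0.05 there were 4 higher and 1 lower, with DESeq2 3 and 0, and with limma-voom 4 and 0. In T133A against KO 3 were lower and none higher (19.6% and 20.3% of all genes), and with DESeq2 1 was lower and none higher. In T133A against WT 1 rose, SNHG4, where 5.58% of all genes were called higher, and with DESeq2 the number was also 1. SNHG19 had 5.45 and 6.17 CPM in T133A, 12.2 and 8.81 CPM in KO, and 4.90 and 5.01 CPM in WT (KO against WT 1.08, edgeR adjusted p = 0.000179). SNHG15 had 17.97 and 14.97 CPM in T133A, 21.6 and 23.5 CPM in KO, and 13.2 and 14.6 CPM in WT (0.70, edgeR adjusted p = 0.00053). SNHG4, whose exons overlap those of MATR3 and SIL1, stood at 0.48 in KO (edgeR adjusted p = 0.00469, lost without WT replicate 2 at 0.46) and 0.46 in T133A against WT (edgeR adjusted p = 0.0256, lost without WT replicate 1 at 0.48, WT replicate 2 at 0.43 and T133A replicate 2 at 0.30, and at 0.39 with scaling by library size only). SNHG8 was lower in T133A than in KO (-0.35, edgeR adjusted p = 0.046), a call that held only without T133A replicate 2 among the 6 sets of 5 libraries (-0.42 to -0.27), and it was lost under 6 other settings, DESeq2 among them (DESeq2 adjusted p = 0.109). SNHG15 in T133A against KO (-0.45, edgeR adjusted p = 0.0168) lost its call without KO replicate 2 (-0.39) and T133A replicate 2 (-0.33) and with DESeq2 (DESeq2 adjusted p = 0.0511). The number lower was thus 1 without KO replicate 2 and 2 without each other library.

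Several members are hosts of microRNAs. The libraries do not measure mature microRNAs, so the values are of the host transcripts alone. The RefSeq (GRCh38.p14) records used here place 27 microRNA hairpins within 17 members, 23 of them on the member's strand and 4 on the opposite strand. For the hosts listed in the next sentence a single mature arm of each hairpin is shown. The seed, bases 2 to 8, which pairs with targets, is in capitals. MIR29B2CHG carries miR-29c and miR-29b-2 with an identical seed (chromosome 1, 207801865 to 207801886 and 207802450 to 207802472, reverse strand), CYTOR and MIR4435-2HG each carry a copy of miR-4435, AC048341.1 carries let-7i, MIR193BHG carries miR-193b and miR-365a, and LINC00472 carries miR-30a and miR-30c-2, whose 5p arms share a seed.
hsa-miR-29c-3p: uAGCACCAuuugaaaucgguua
hsa-miR-29b-3p: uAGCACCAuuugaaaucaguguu
hsa-miR-4435: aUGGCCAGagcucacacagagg
hsa-let-7i-5p: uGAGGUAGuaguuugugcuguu
hsa-miR-193b-3p: aACUGGCCcucaaagucccgcu
hsa-miR-365a-3p: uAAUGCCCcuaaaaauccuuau
hsa-miR-30a-5p: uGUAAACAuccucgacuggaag
hsa-miR-30c-5p: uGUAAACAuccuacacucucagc

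The host of the miR-29 pair, MIR29B2CHG, had 4.54 and 4.17 CPM in T133A, 1.27 and 1.34 CPM in KO, and 4.67 and 4.51 CPM in WT. KO lay apart, and the host fell in KO against WT (-1.80, SE 0.278, edgeR adjusted p = 1.49e-05). AC048341.1, which was not on the host list and is named after its values were seen, was counted 110 and 128 times in T133A, 74 and 31 times in KO, and 185 and 132 times in WT (KO against WT -1.58, edgeR adjusted p = 0.000361). LINC00472, the miR-30 host, had 1.78 and 1.47 CPM in T133A, 3.82 and 3.28 CPM in KO, and 2.92 and 2.73 CPM in WT, and passed in T133A against KO (-1.12, edgeR adjusted p = 0.0041) but not against WT in either group. MIR193BHG stood at 0.66 in both T133A and KO against WT (edgeR adjusted p = 0.0498 and 0.0127), the KO call being lost without KO replicate 2 (0.48) and WT replicate 2 (0.60) and with DESeq2 (DESeq2 adjusted p = 0.0699). MIR210HG, whose miR-210 is induced by low oxygen, differed by 0.89 between T133A and KO (edgeR adjusted p = 0.0318), but by 0.41 without T133A replicate 1, and the call was also lost without KO replicate 1 (1.005) or KO replicate 2 (0.74), with DESeq2 (0.88), with limma-voom (0.83) and with scaling by library size only (0.84). Of the 10 members on the microRNA host list 1 rose in T133A against WT and none fell, 2 rose and 1 fell in KO against WT, and 2 were higher and 1 lower in T133A against KO, where 9.55%, 46.6% and 39.9% of all genes were called in either direction. With DESeq2 and limma-voom none of them passed in T133A against WT. Without KO replicate 2 or WT replicate 2 the number that rose in KO was 1, and without KO replicate 1 or KO replicate 2 the number higher in T133A than in KO was 1.

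Of the 14 members on a list of lincRNAs studied in carcinomas, 2 rose and none fell in T133A against WT (5.58% and 3.97% of all genes). At an unadjusted p under 0.05 there were 3 each way, with DESeq2 1 and 0, and with limma-voom 2 and 1. In KO against WT 3 rose and 5 fell (23.6% and 23% of all genes), and in T133A against KO 3 were higher and 5 lower (20.3% and 19.6% of all genes). The medians were -0.02, 0.08 and -0.19. Without T133A replicate 2 the number lower in KO was 3. The number that rose in T133A was 1 without T133A replicate 1 or WT replicate 1 and 0 without WT replicate 2. Of the 4 members linked to p53, PURPL and NEAT1 fell in KO (23% of all genes were lower) and MIR34AHG and TP53TG1 did not pass there. In T133A against WT, where edgeR called 9.55% of all genes, none passed by edgeR or DESeq2 (2 lower at an unadjusted p under 0.05, 1 lower with limma-voom). TP53TG1 was lower in T133A than in KO (-0.63, edgeR adjusted p = 0.0397), a call kept only without KO replicate 1 among sets of 5 libraries and lost under 5 other settings, DESeq2 among them (DESeq2 adjusted p = 0.179). The inflammation list held NEAT1 and LINC00973, the hypoxia list NEAT1, MIR210HG and LINC01116, the imprinted list MEG3 and PWAR6, and the list of RNAs beside lineage genes LINC01133 alone, with values given above for those that passed.

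None of 17 named HOX cluster noncoding RNAs met the rule for members. That rule asks for the biotype lincRNA as well as the level, so this does not show that they were not expressed. LincRNAs at HOX genes were AC012531.1 (ENSG00000260597, chromosome 12, 54019910 to 54022589), inside HOXC4, and LINC02086 (chromosome 17, 48646923 to 48707346), 13351 bases from HOXB7 and named after its values were seen. AC012531.1 had 5.45 and 6.64 CPM in T133A, 0.364 and 0.806 CPM in KO, and 8.11 and 6.29 CPM in WT (KO against WT -3.58, SE 0.326, edgeR adjusted p = 6.61e-09). HOXC4 itself, counted 116 and 80 times in T133A, 66 and 110 times in KO, and 102 and 109 times in WT, stood at -0.27 (edgeR adjusted p = 0.363). LINC02086 had 8.67 and 7.28 CPM in T133A, 4.001 and 5.11 CPM in KO, and 6.60 and 7.57 CPM in WT (-0.63, edgeR adjusted p = 0.0182), and HOXB7 stood at -0.48 (edgeR adjusted p = 0.00568).

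The coding genes beside changed lincRNAs were called in the same direction more often than the opposite one in KO against WT. For 141 members the nearest coding gene within 50 kb was also tested. Of 26 such members higher in KO, 14 had a neighbour that was higher, 4 one that was lower and 8 one not called. Of 37 lower members, 12 had a lower neighbour, 5 a higher one and 20 one not called. Over all coding genes tested 26.6% were called higher and 23.8% lower in this comparison. Across the 141 pairs Pearson's r of the log2 fold changes was 0.301, a description over pairs from the same 6 libraries, some with overlapping exons. In T133A against WT none of 7 higher and 4 lower members had a neighbour called the same way, and 1 higher member had a neighbour called lower (r 0.219; 6.29% and 4.53% of coding genes were called higher and lower by edgeR). In T133A against KO 12 of 27 higher and 11 of 24 lower members had a neighbour called the same way, and 3 in each direction had one called the opposite way. Over all coding genes tested 21.6% were called higher and 21.9% lower in that comparison.

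Pairs that start head to head were counted on their own. Of the 58 pairs with a tested coding partner, 9 lincRNAs were higher in KO against WT, with 7 partners higher and 1 lower, and 11 were lower, with 7 partners lower and 1 higher. BISPR, an interferon-induced lincRNA known to promote expression of its divergent partner BST2, had 3.10 and 2.70 CPM in T133A, 0.121 and 0.645 CPM in KO, and 3.50 and 3.29 CPM in WT. Its exons overlap those of MVB12A. BST2, which encodes the antiviral protein tetherin, had 121 CPM in both T133A libraries, 5.46 and 4.14 CPM in KO, and 106 and 118 CPM in WT, a log2 fold change of -4.55 in KO against WT (SE 0.145, edgeR adjusted p = 7.01e-17) and 0.11 in T133A against WT (edgeR adjusted p = 0.623). EPB41L4A-DT fell with EPB41L4A (-2.25 and -1.92). BST2 and this pair are named after their values were seen. AL355338.1 went against its partner PCCA (1.17 and -0.37). As a class, 33.3% of the 60 head-to-head members were called in KO against WT, against 51.3% of the other 158, and none was higher in T133A against WT with edgeR (13 of the other 158 were). By level, 68.1% of the 47 members at 10 CPM or more were called in KO, against 40.4% of the other 171.

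**Figure D5:**
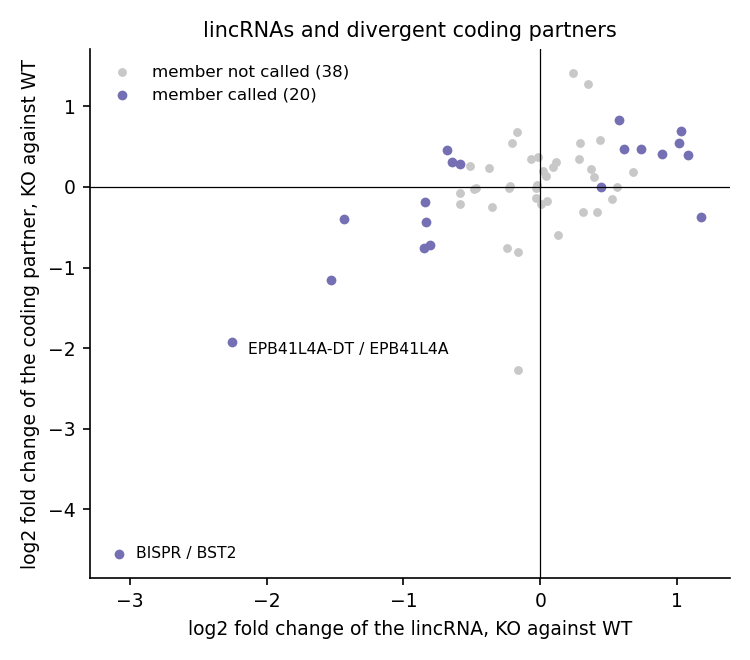
Log2 fold change in KO against WT of each lincRNA that starts within 2 kb of a coding gene on the opposite strand (horizontal axis) and of that coding gene (vertical axis), for 58 pairs. Purple points are the 20 pairs whose lincRNA was called and grey points the other 38. BISPR with BST2 (-3.07 and -4.55) and EPB41L4A-DT with EPB41L4A (-2.25 and -1.92) lie at the lower left.

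Promoters from RefSeq (GRCh38.p14), 250 bases before to 50 after the start, matched 89 members by gene name. For 66 the RefSeq start lay within 500 bases of the start in the deposited files. The windows of 4 members with large changes are printed in the direction of transcription, with matches to a HOX paralog group 9 motif (TTTATNG, either strand) in capitals. They belong to LINC01133 (chr1:159960974-159961273, forward) and BISPR (chr19:17405436-17405735, forward), which fell in KO, and to LINC00941 (chr12:30795431-30795730, forward) and SNHG19 (chr16:2155309-2155608, reverse), which rose.
LINC01133: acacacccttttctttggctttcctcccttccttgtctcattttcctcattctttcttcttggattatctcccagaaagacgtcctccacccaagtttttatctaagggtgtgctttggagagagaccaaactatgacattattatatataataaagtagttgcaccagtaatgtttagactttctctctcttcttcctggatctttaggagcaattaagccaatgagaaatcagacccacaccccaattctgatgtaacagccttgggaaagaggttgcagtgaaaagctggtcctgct
BISPR: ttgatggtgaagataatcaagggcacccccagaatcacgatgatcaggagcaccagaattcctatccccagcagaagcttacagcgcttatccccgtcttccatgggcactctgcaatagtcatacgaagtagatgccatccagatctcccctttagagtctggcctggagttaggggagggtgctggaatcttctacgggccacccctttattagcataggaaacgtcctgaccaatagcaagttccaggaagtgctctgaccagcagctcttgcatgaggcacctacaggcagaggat
LINC00941: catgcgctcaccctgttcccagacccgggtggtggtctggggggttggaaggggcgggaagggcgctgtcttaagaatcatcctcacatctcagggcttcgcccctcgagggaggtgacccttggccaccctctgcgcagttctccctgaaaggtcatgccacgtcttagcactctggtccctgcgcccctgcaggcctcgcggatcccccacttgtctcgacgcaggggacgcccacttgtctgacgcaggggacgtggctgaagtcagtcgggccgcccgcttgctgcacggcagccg
SNHG19: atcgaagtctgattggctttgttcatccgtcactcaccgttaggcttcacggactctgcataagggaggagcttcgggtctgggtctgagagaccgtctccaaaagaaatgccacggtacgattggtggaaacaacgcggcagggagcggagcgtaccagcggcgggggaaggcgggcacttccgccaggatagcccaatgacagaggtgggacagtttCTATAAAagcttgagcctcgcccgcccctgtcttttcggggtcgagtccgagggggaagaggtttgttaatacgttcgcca

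That motif was in 2 of the 66 member promoters (3.03%), against 10.1% of all 27305 RefSeq promoters. It was in 1 of 18 members lower in KO (5.56%) and 1 of 10 higher in KO (10.0%). The AP-1 motif TGANTCA was in 3 of the 66 (4.55%), against 7.76% of all, and an NF-kB motif in 6 (9.09%), against 10.8%, both read on either strand. The member promoters had a median GC content of 66.2%, against 58.3% for all. A match describes the letters of a window and no more.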

How the data were processed

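RNA was sequenced from 6 libraries of A549 cells, 2 each of T133A, KO and WT. Reads were aligned with HISAT2 2.0.5 to GRCh38 and counted with featureCounts 1.5.0, per the submitters' processing notes. The authors deposited read counts per gene and, in the same table, FPKM values per the file headers. The sources used here do not state the strand setting, RNA selection or annotation, and all 58735 gene identifiers matched GENCODE 29.

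The members and gene lists were chosen with earlier results of these data known. Counts were scaled by TMM, filtered with filterByExpr and fitted in a single edgeR 4.0.16 quasi-likelihood model (robust, group as the term, all 6 libraries, R 4.3.3) over 16340 genes, with Benjamini-Hochberg adjustment over all of them and calls at an adjusted p under 0.05. An edgeR fit with the same filter, scaling and model, written separately, was also run on simulated counts with known changes. The other steps were not run on simulated data. Standard errors were the log2 fold change divided by the square root of F. CPM levels are TMM scaled, except that membership and summed levels use the total count. The limit for a count of 0 was 3 counts per library, and intervals and limits cover counting error only. Named genes were the 10 members with the highest CPM, the 10 largest rises and falls called in each comparison with a fold of at least 1.5 and groups apart, and, from every list, at most 4 members ranked by adjusted p among those called (those with the highest CPM if no member was called). Coding neighbours were those of the members described. Others are said to be named after their values were seen. Alternatives were DESeq2 1.42.0, limma-voom (limma 3.58.1), other scalings and filters, a GC and length correction (loess span 0.5), other membership thresholds, a replicate block and leaving out each library. Replicate numbers did not pair the samples. Sequences came from RefSeq (GRCh38.p14), and tables and plots were made with Python 3.11.15, numpy 2.4.6, pandas 2.3.3, scipy 1.17.1 and matplotlib 3.10.9.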

Additional observations from a re-analysis of the deposited data

How the results depend on the processing

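In T133A against WT the 13 lincRNAs called higher were 6 with DESeq2, 8 with scaling by library size only, 7 with a filter at a mean of 5 CPM, 6 at a minimum log2 fold change of 1 and 8 with membership at 2 CPM in each group, and 5 to 13 with 1 library left out. The 6 called lower were 2 with DESeq2, 10 with the GC and length correction, 2 with the 5 CPM filter, 10 with only the compared groups in the fit, 1 with membership at 5 CPM and 1 at 2 CPM in each group, and 3 to 12 with 1 library left out. In KO against WT the 37 called higher were 22 with DESeq2 and 12 at a minimum of 1, and 24 to 40 with 1 library left out. The 64 called lower were 34 with the 5 CPM filter, 36 at a minimum of 1, 31 with membership at 5 CPM and 33 at 2 CPM in each group, and 47 to 66 with 1 library left out. In T133A against KO the 51 called higher were 24 with the 5 CPM filter, 32 at a minimum of 1, and 22 with either membership, and 36 to 49 with 1 library left out. The 34 called lower were 20 with DESeq2, 22 with the 5 CPM filter and 12 at a minimum of 1, and 22 to 31 with 1 library left out. Filters and memberships at higher levels test fewer genes or members by construction, and the cause of the other moves was not tested. The summed level of KO to WT was 0.858 without MALAT1 and NEAT1. Values of named genes that changed sign passed no test on either side. With the GC and length correction LINC01184 stood at 0.0274 in KO against WT and -0.0388 in T133A against KO, and EBLN3P at 0.0545 and LINC01133 at 0.00985 in T133A against WT. SNHG4 in T133A against KO was 0.0218 with the 5 CPM filter and 0.0154 without mitochondrial genes. With 1 library left out, values ran from -0.126 to 0.0915 for EBLN3P, -0.124 to 0.121 for LINC01184 and -0.211 to 0.204 for LINC01133 in T133A against WT, and from -0.181 to 0.157 for SNHG4 in T133A against KO, positive without T133A replicate 1 and without KO replicate 1. Of the values of named genes under alternatives, 570 of 598 in KO against WT, 573 of 630 in T133A against KO and 389 of 467 in T133A against WT kept their direction and their side of the threshold. With the replicate block 11 were higher and 6 lower in T133A against WT, 36 and 61 in KO against WT, and 50 and 32 in T133A against KO. Same-numbered libraries did not deviate together (correlations -0.12 for T133A and KO, -0.05 for T133A and WT, 0.02 for KO and WT), and a crossed pairing of T133A and KO, chosen after seeing the data, gave 14 higher and 14 lower in T133A against WT, in place of 13 and 6, 38 and 67 in KO against WT, and 52 and 36 in T133A against KO. As to depth, 40.4% of the 171 members under 10 CPM were called in KO against WT, against 68.1% of the 47 others.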
